A study of Saccharomyces cerevisiae with 34 samples.

Results

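In wild-type budding yeast (Saccharomyces cerevisiae, strain BY4741), 200 genes were chosen by their ratio of newly made RNA to total RNA, the highest of all genes that could be ranked. They came from 3469 genes with at least 50 reads per 1000000 S. cerevisiae reads (CPM) (the floor) in both the nascent and the total RNA library of replicate 1 of wild-type (WT) cells given DMSO, so they are 5.77% of those genes and belong to a table of 5390 S. cerevisiae rows. The ratio that chose them ran from 1.00 to 1.87 on the log2 scale, with a median of 1.11, against 0.37 over all genes past the floor. These values describe the choice and test nothing. The last genes inside were MAD1, CCL1 and YOL014W, at 0.9997, 0.9994 and 0.9993, and the first outside were SET3, SAC3 and CDC53, at 0.9987, 0.9986 and 0.9975, so the border is a cut through a continuous range. Each member was set beside a comparison gene, the unused non-member past the floor nearest to it in log2 CPM of total RNA in WT DMSO replicate 2. The largest distance within a pair was 0.218 log2 units, and both sets had a median of 147 CPM there.

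The study measured RNA synthesis and RNA levels after inhibition of Kin28, the kinase of the general transcription factor TFIIH that phosphorylates the tail of RNA polymerase II. Cultures were grown in dextrose medium lacking histidine and received inhibitor or solvent for 1 h, at 2 µM in replicate 1 and at 5 µM in later replicates, and 5 mM 4-thiouracil (4tU) for the last 6 min. S. pombe cells, also labelled, were mixed in at 1 cell to 6 S. cerevisiae cells before lysis and serve as an outside scale. RNA that had taken up 4tU was biotinylated and pulled down (nascent RNA), and total RNA was sequenced beside it.

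Nascent RNA came from kin28is cells given CMK, an irreversible inhibitor (4 libraries), the reversible inhibitor 1-NAPP-1 (3 libraries) or DMSO (3 libraries). There were 2 nascent libraries per treatment from WT cells, and 1 with 1-NAPP-1 and 1 with DMSO from kin28as cells. Total RNA had 2 libraries per treatment for kin28is and for WT cells, and 1 each for the same kin28as treatments. A WT DMSO culture that received no 4tU gave 1 library of each kind. The labels describe both KIN28 alleles as analog-sensitive and say nothing of how they were introduced, and dose and replicate set cannot be told apart. It is not stated that replicates came from separate cultures, and p-values then reflect only how much these samples vary, a variation that may be technical.

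A 4tU pulse marks the RNA made during a few minutes, so the pulled-down share of a transcript rises with how quickly its pool is renewed. At steady state a transcript with a large new share is one that is also degraded quickly, and in yeast the messages for ribosome assembly factors, transcription factors and cell cycle regulators are textbook cases of fast turnover. No decay rate was measured in these libraries, and length and uracil content also bear on how well a transcript is pulled down.

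Depth ran from 517887 to 15568445 reads of both species over 34 libraries (19 nascent, 15 total), with 0.144 to 45.8 S. cerevisiae reads per S. pombe read. The median member had 66 reads in the pull-down without 4tU and 92 to 5091 in the other libraries. The a-specific genes of the MATa strain BY4741 were read in every library (STE2 at 173 to 1005 CPM, MFA2 at 190 to 1042 CPM), apart from MFA1 (0 to 138 CPM). The alpha pheromone genes MF(ALPHA)1 and MF(ALPHA)2 reached at most 3.09 and 6.14 CPM. The other 2 of the 4 alpha-specific genes read higher, SAG1 (alpha-agglutinin) at 31.2 to 158 CPM in every library and STE3 (the a-factor receptor) at 0 to 75.5 CPM with a median of 6.46, and their part in the results was not tested. Of the loci deleted in BY4741, MET17 reached at most 8.64 CPM and LEU2 32.7 CPM. HIS3 was read in every library at 26.5 to 220 CPM, and URA3 had a median of 0.833 CPM with a highest value of 359 CPM in nascent kin28is CMK replicate 2. KIN28 stood at 28.9 to 88.8 CPM, which shows its transcription and does not check the alleles.

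The largest named group among the members was ribosome assembly, the nucleolar factors that process ribosomal RNA and build both subunits. Of 147 such genes past the floor, 29 were members (19.7%, against 5.77% of all genes past the floor). The 3 with the highest ratio, UTP9 of the small-subunit processome, CIC1 of the large-subunit pathway and CMS1, are shown by sequence because the promoters of this regulon share motifs. The letters are 150 bases that end 60 bases before the start codon, from RefSeq assembly R64 (the sequence of sacCer3), 5′ to 3′ on the gene's strand. Capitals mark the PAC core GATGAG and the RRPE core AAAAATTT, on either strand, and where 2 RRPE matches overlap they form 1 longer run. The stretch shown for UTP9 lies at chrVIII:491721-491870 (+), that for CIC1 at chrVIII:210638-210787 (+) and that for CMS1 at chrXII:157791-157940 (-).
UTP9: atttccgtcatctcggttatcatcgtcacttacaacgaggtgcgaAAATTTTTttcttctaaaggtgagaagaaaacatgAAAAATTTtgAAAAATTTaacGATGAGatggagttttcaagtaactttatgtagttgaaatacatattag
CIC1: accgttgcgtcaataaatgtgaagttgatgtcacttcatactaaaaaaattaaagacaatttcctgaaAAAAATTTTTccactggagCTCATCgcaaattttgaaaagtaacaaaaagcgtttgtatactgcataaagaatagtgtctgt
CMS1: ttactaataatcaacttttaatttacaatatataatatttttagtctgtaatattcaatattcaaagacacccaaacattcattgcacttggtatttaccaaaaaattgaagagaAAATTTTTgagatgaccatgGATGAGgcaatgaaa

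Both cores were present within 300 bases before the start codon in 18.6% of 199 members with a RefSeq match, in 9.64% of comparison genes and in 8.21% of all 3422 genes past the floor that had a coding sequence. The PAC core, with or without the RRPE core, was in 27.6%, 23.4% and 20.4% of those sets. The RRPE core, with or without the PAC core, was in 33.2%, 20.8% and 19.3%. Both shares include the genes that held both cores. On the ribosome assembly list 21 of 29 members held both cores (72.4%), as did 87 of 118 list genes that were not members (73.7%), while members off the list stood at 9.41%. In the 21 promoters the PAC core nearest to the start codon lay 67 to 157 bases before it, with a median of 105, and in the 3 shown it lay 109 bases before it in UTP9, 123 in CIC1 and 75 in CMS1. Of other motifs, TATAAA was more frequent in members, in 52.3%, against 42.6% of comparison genes and 45.6% of all. The stress element core AGGGG was less frequent in members (17.1%, 25.4% and 21.2%), as was the G1/S motif ACGCGT (1.01%, 4.57% and 3.57%). A match is a description of letters, and its absence says nothing of a factor.

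Other groups followed. Nuclear pore and transport genes gave 9 members of 53 (17.0%), led by the karyopherin KAP120 and the Y-complex nucleoporins NUP120 and NUP133. The G2/M list gave 5 of 30 (16.7%), with ASE1 of the spindle midzone, IQG1 of the cytokinetic ring, the polo kinase CDC5, the mitotic cyclin CLB2 and the transcription factor SWI5. Heat shock chaperones gave 4 of 31 (12.9%), among them CUR1 and BTN2, which sort misfolded proteins, and FES1, a nucleotide exchange factor of Hsp70. DNA-binding transcription factors gave 10 of 99 (10.1%), led by TYE7, an activator of glycolytic genes, RPN4, the activator of proteasome genes, and HAP4, the regulated subunit of the respiratory activator.

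Among regulators of RNA itself, 6 of 62 mRNA decay factors were members (9.68%), led by CAF130 and CDC39 of the CCR4-NOT deadenylase and by CTH1, a zinc-finger protein of mRNA decay. Chromatin genes (7 of 99, 7.07%, led by SWI1, ARP9 and BRE1) and the list of RNA polymerase II, Mediator and general factors (5 of 75, 6.67%, led by NUT1, TAF12 and RGR1) stood near the 5.77% of all genes. Cytosolic ribosomal protein genes, whose messages are abundant, gave 1 member of 116 (0.862%), RPS30A. Of 35 lists 14 held no member, among them mitochondrial ribosomal proteins (0 of 55), G1/S genes (0 of 52), amino acid biosynthesis (0 of 50), ergosterol synthesis (0 of 21), glycolysis (0 of 20) and tRNA synthetases (0 of 19). The median log2 ratio was 0.51 for the mitochondrial ribosomal list and 0.37 for G1/S genes, where all genes past the floor had 0.37. It was -0.35 for amino acid biosynthesis, -0.27 for ergosterol synthesis, -0.97 for glycolysis and -0.65 for tRNA synthetases. Of the 200 members, 100 were on no list. The plot of list shares sets these groups side by side.

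**Figure D1:**
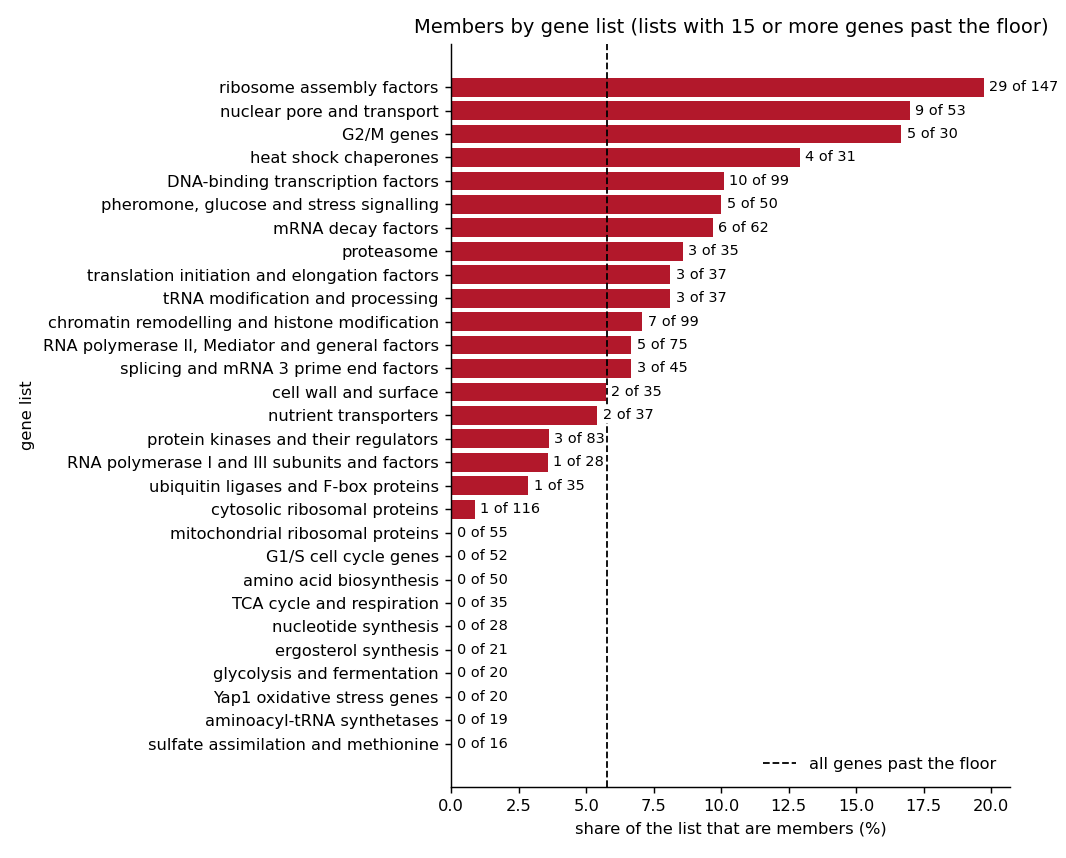
Share of genes past the floor that belong to the 200 high-ratio genes, by function list, in percent on the horizontal axis (lists with at least 15 such genes), with the 5.77% of all genes marked. Ribosome assembly (19.7%), nuclear pore and transport (17.0%) and G2/M genes (16.7%) stand highest, and ribosomal proteins (0.862%) far below the mark.

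The highest ratios belonged to single genes of varied function, given here as the values that chose them. YKL068W-A (chromosome XI, 309206 to 309442), an open reading frame without a standard name, had 435 CPM in nascent and 119 CPM in total RNA, a log2 ratio of 1.87. NCS2, which thiolates the wobble uridine of tRNAs, followed at 1.59 (172 and 57.4 CPM), then YLR297W at 1.58, YDR183C-A at 1.54 and TYE7 at 1.52 (458 and 160 CPM). HHT1, one of a pair of near-identical histone H3 genes, stood at 1.48, the kinase gene KSP1 at 1.47 (1360 and 492 CPM), the polyamine transporter gene TPO4 and CUR1 at 1.43 each, and the exocyst subunit gene SEC5 at 1.40. The next were the Mediator subunit gene NUT1 and MUB1, a partner of the ubiquitin ligase Ubr2, at 1.38 each. UTP9 followed at 1.34, URB2, needed for large-subunit ribosomal RNA, at 1.33, and CDC55, a regulatory subunit of protein phosphatase 2A, at 1.31.

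The same ratio was then read in libraries that the choice did not use. In WT DMSO replicate 2 the members had a median log2 ratio of 1.09, comparison genes 0.47 and all genes past the floor 0.34, and 186 of 200 members lay above that last value. In kin28is cells given DMSO the members' medians were 0.87, 1.09 and 0.94 in replicates 1 to 3, against 0.54, 0.56 and 0.48 for comparison genes. In kin28as cells with DMSO they were 1.01 against 0.67. The single genes kept their order only in part. The same rule applied to the WT DMSO replicate 2 libraries gave 200 genes of which 43 (21.5% of each set) were shared, and applied to kin28is DMSO replicate 1 it shared 76 (38%). Nascent WT DMSO replicate 2 was shallow (830598 reads), with a median of 200 reads per member.

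**Figure D2:**
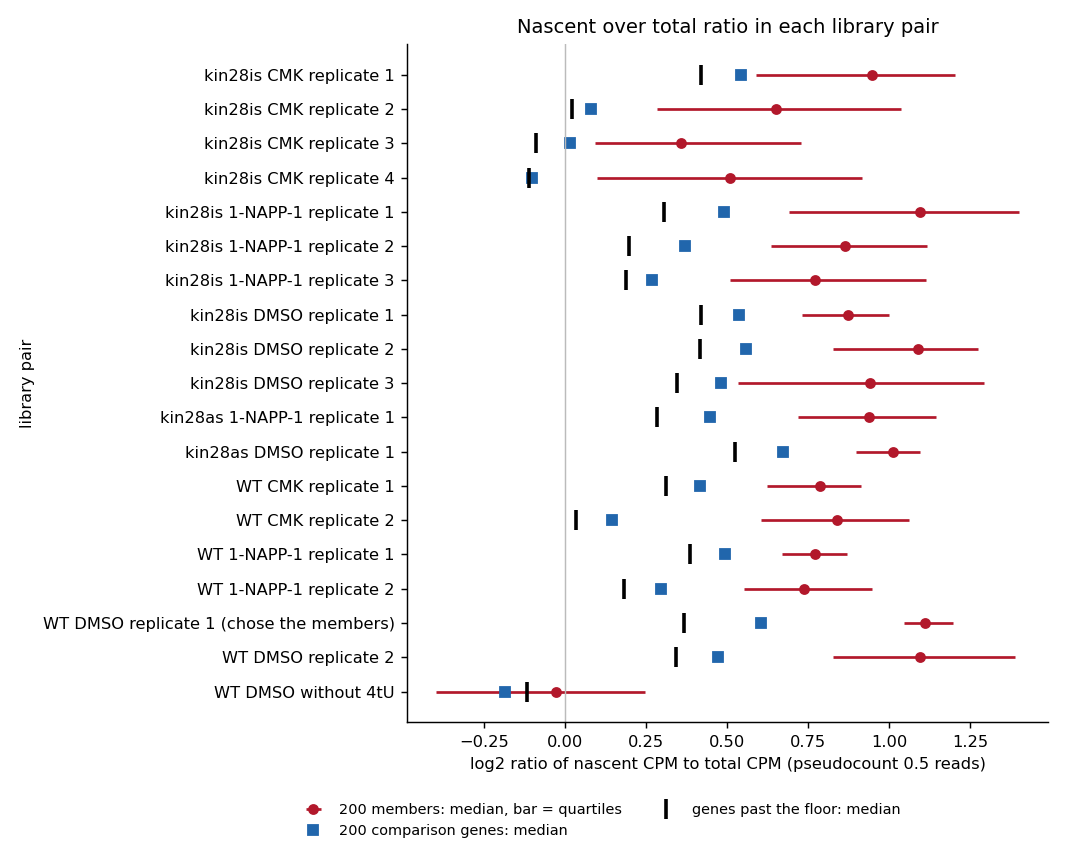
Log2 ratio of nascent to total CPM in each pair of libraries, as medians of the 200 members, the comparison genes and all genes past the floor; bars span the quartiles of members. The members' median is above the other medians in all 19 pairs, by 0.74 against all genes in the pair that chose them and by 0.09 in the pair without 4tU.

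Over the 17 labelled pairs outside the choice, 103 of 200 members (51.5%) lay above the median of all genes past the floor in every pair, as did 29 of 200 comparison genes (14.5%) and 363 of all 3469 genes (10.5%). Pairs share total RNA libraries and are not independent. The lowest count belonged to RNT1, the nuclear RNase III, above in 6 of 17 pairs and named after its values were seen. Across the 3469 genes the ratio correlated with that of the choosing pair at Pearson's r of 0.367 to 0.928, lowest in kin28is CMK replicates 2 to 4 at 5 µM (0.410, 0.367 and 0.538) and at 0.734 in replicate 1, and at -0.17 in the pair without 4tU. Those values share the depth and length of each gene and are a description.

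The pair without 4tU gives the background of the pull-down. There the members' median ratio was -0.03, that of comparison genes -0.18 and that of all genes -0.12, and 118 members (59%) were above the last value. Single members still read high, with 2 of 200 above a log2 ratio of 1. One was BTN2 at 1.10, which had 1.56 in WT DMSO replicate 2. TYE7 stood at 0.03 without 4tU and at 2.21 in WT DMSO replicate 2, and KSP1 at 0.27 and 2.03.

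**Figure D3:**
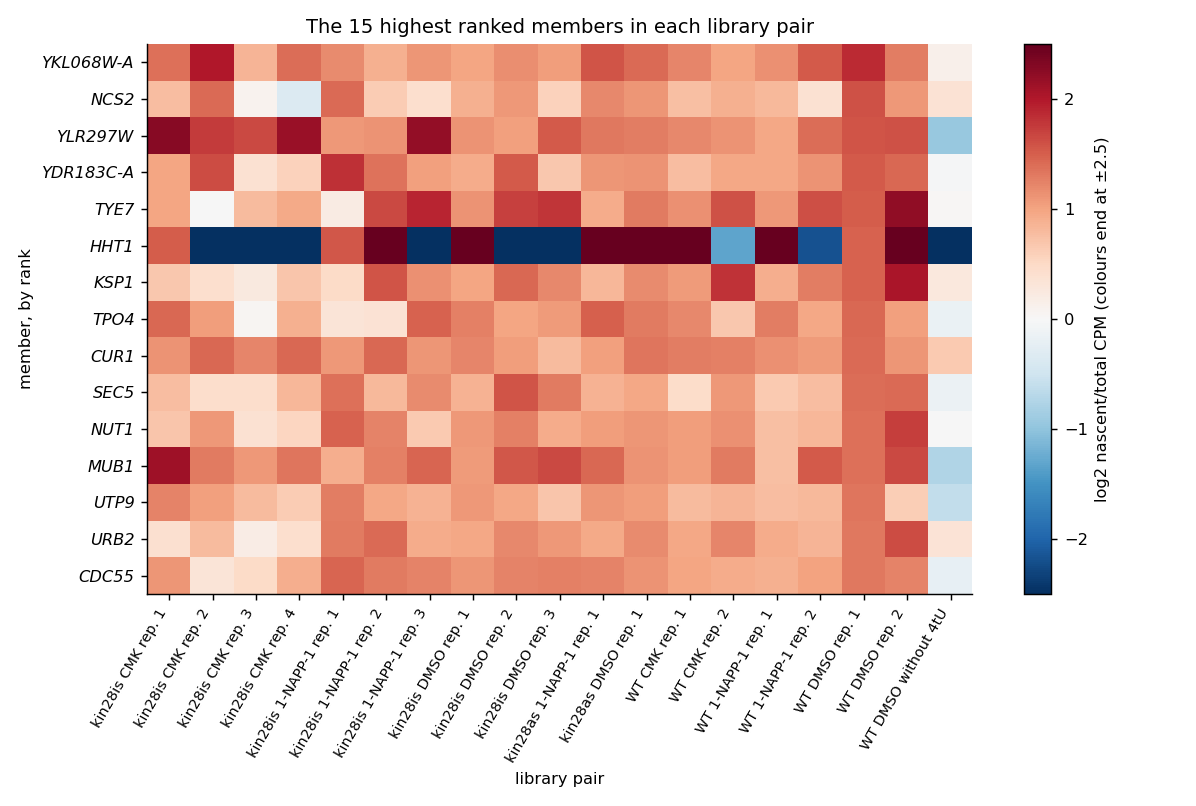
Log2 ratio of nascent to total CPM for the 15 members with the highest ratio in the choosing pair (rows), in every library pair (columns), as colour from blue (below 0) to red (above 0), with values beyond the scale in its end colours. HHT1 swings from 5.23 in WT DMSO replicate 2 to -4.64 in kin28is DMSO replicate 3, and TYE7 reaches 2.21 in WT DMSO replicate 2 against 0.03 without 4tU.

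Whether the ratio was high beyond the spread between libraries was tested in kin28is DMSO cells, which played no part in the choice (3 nascent against 2 total libraries, edgeR quasi-likelihood test, Benjamini-Hochberg adjustment at 0.05). Of the members, 47 of 200 were called higher in nascent RNA and 0 lower, where 3.76% of all 5246 genes tested were called higher and 9.49% lower. Genes of like level gave 13 higher and 22 lower. The median log2 ratio was 0.71 for members, 0.25 for comparison genes and 0.05 for all genes, after scaling to the bulk of S. cerevisiae genes. At an unadjusted p under 0.05, in either direction, there were 120 members, and 194 of 200 had a ratio above 0. Comparison genes gave 90 and 123 of 200, and genes past the floor 1303 and 1967 of 3469. Of all 5246 genes 1630 were under that p and 2753 had a ratio above 0. With the replicate number as a block, which in the labels separates the 2 µM from the 5 µM set, 122 members were called higher (11.9% of all genes, with 14.5% lower), including the same 47. The count rested on single libraries. It was 0 without total RNA replicate 1, 8 without total replicate 2, and 84, 5 and 9 without nascent replicates 1, 2 and 3.

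MUB1 had the smallest adjusted p among members. It stood at 389, 462 and 491 CPM in the 3 nascent libraries, against 186 and 157 CPM in the 2 total RNA libraries, a log2 ratio of 1.12 ± 0.25 (SE, adjusted p = 0.0062). WHI4, an RNA-binding protein gene, had 151, 256 and 262 CPM in nascent and 76.6 and 75.6 CPM in total RNA (1.28 ± 0.29, adjusted p = 0.0068). YLL054C, which has no standard name, stood at 197, 339 and 360.5 CPM in nascent and at 90.4 and 104 CPM in total RNA (1.34 ± 0.32, adjusted p = 0.0082). ASE1 had 639, 863 and 972 CPM in nascent and 308 and 335 CPM in total RNA (1.08 ± 0.26, adjusted p = 0.0086). In each of these genes every nascent library was above every total RNA library, and replicate 1 was the lowest nascent value. The lack of overlap was a condition of choosing them for this comparison.

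By group, 5 of 6 mRNA decay members were called higher, with a median log2 ratio of 1.13, including CAF130 (1.57, adjusted p = 0.041) and CDC39 (1.19, adjusted p = 0.049). CAF130 stood at 343, 843 and 1009 CPM in nascent and at 158 and 244 CPM in total RNA. Signalling members followed with 3 of 5 (SAP155 at 0.96 and PDE2, the cAMP phosphodiesterase, at 1.35 among them, SDS22 at -0.09 not called). Of 5 G2/M members, ASE1 and CLB2 (0.87, adjusted p = 0.048) were called. The nuclear pore members gave 2 of 9, with NUP120 at 1.19 (adjusted p = 0.016). Transcription factors gave 2 of 10 with a median of 0.98, and TYE7 (1.30, adjusted p = 0.064) and RPN4 (1.17, adjusted p = 0.11) were not called. Of the 29 ribosome assembly members 1 was called, with a median of 0.43. UTP9 stood at 0.68 (adjusted p = 0.060), CIC1 at 0.43 and CMS1 at 0.05.

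**Figure D4:**
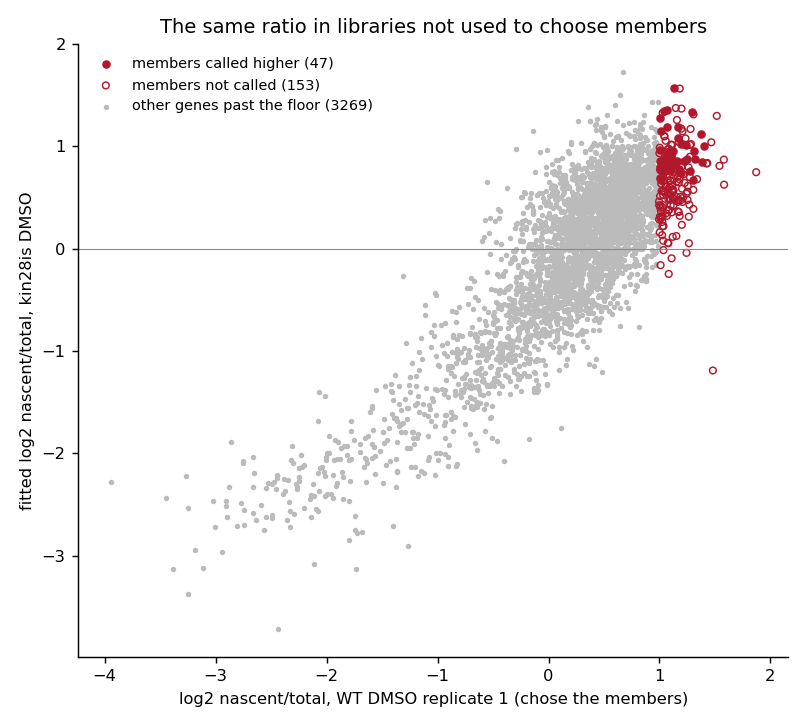
Log2 nascent to total ratio of each gene past the floor, in the WT DMSO replicate 1 pair that chose the members (horizontal) and in the fit to kin28is DMSO libraries (vertical), with members and called members marked. Members lie right of 1.00 by construction; vertically 187 of 200 are above the median of all genes and 47 are called higher.

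HHT1 stood apart from every other member. It ranged from 0 to 6017 CPM over nascent libraries and from 9.19 to 882 CPM over total RNA libraries, and the 3 nascent kin28is DMSO libraries had 485, 39.9 and 24.2 CPM. Its log2 ratio there was -1.19, the lowest of all members. Reads of HHT1 and its near-identical copy HHT2 cannot be assigned with certainty, so no response of HHT1 is given as a result.

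Members were long genes. Their median coding length was 1965 bases, against 1641 for comparison genes and 1461 for all genes past the floor, and T made up a median 28.5%, 27.6% and 27.2% of the coding sequence. Across 3422 genes the log2 coding length correlated with the ratio in kin28is DMSO cells at r = 0.55, and the T content at r = 0.17, as a description. Members were above non-members within each range of length. Among genes of 78 to 1098 bases the median log2 ratio was 0.63 for 31 members and -0.45 for 1115 non-members. Between 1101 and 1923 bases it was 0.57 for 67 members against 0.13, and from 1926 to 14733 bases 0.78 for 101 members against 0.48. Of the 47 calls 35 fell in the longest range, 11 in the middle and 1 in the shortest, where non-members gave 9.34%, 3.36% and 0.538%. The difference was thus 1.08 log2 units among the short genes and 0.30 among the long ones.

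Codon use did not set the members apart, with a median adaptation score (relative to ribosomal protein genes) of 0.202 for members, 0.200 for comparison genes and 0.199 for all. Introns were annotated in 4 of 199 members (2.01%), against 2.54% of comparison genes and 4.30% of all. A direct neighbour that was also a member was found for 22 of 199 members (11.1%), against 6.09% of comparison genes and 7.10% of all genes with a member beside them. Of the members 1 (0.503%), CUB1, overlaps another annotated gene, against 1.02% of comparison genes and 1.08% of all. The sources used here do not say if counting was strand-specific.

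In kin28is cells CMK lowered the nascent RNA of nearly all members, per S. pombe read. At 5 µM, 189 of 200 members were lower with CMK (3 libraries) than with DMSO (2 libraries) and 0 higher, where 72% of all 5211 genes were lower and 0.23% higher. Among genes past the floor 88.2% were lower and 0.0577% higher. The median log2 change was -1.95 for members, -1.82 for comparison genes (180 of 200 lower) and -1.69 for all genes, so the members took part in a fall of most genes. On the log2 scale of reads per 1000000 S. pombe reads the median member stood at 7.15, 6.90 and 6.12 with CMK, against 8.59 and 8.92 with DMSO. The 2 groups did not overlap. Without 4tU the median member stood at 4.54 on that scale, and the part of pull-down background in the CMK values was not tested.

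KSP1 fell by 2.99 ± 0.48 on the log2 scale (SE, adjusted p = 1.9e-07), to 341, 301 and 221 reads per 1000000 S. pombe reads with CMK, against 2139 and 2459 with DMSO. MGA2, a membrane-bound activator of the fatty acid desaturase gene OLE1, had 68.9, 24.4 and 26.5 with CMK and 397 and 462 with DMSO, a change of -3.45 ± 0.58. TYE7 stood at 36.7, 64.3 and 38.8 against 330.4 and 477 (-3.11). CMK values of these 3 genes were several-fold below every DMSO value. All 10 transcription factors (median -2.47), all 5 G2/M members (-2.51), all 6 mRNA decay members (-1.99), all 4 chaperone members (-1.63) and 28 of 29 ribosome assembly members (-1.95) were called lower. With 88.2% of genes past the floor called lower, these counts do not set the groups apart. UTP9 had 168, 141 and 68.4 with CMK and 464 and 528 with DMSO (-1.98).

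The members not called included NCS2 (-1.23, adjusted p = 0.051), PPM2, a tRNA methyltransferase gene (-1.02), and PRM7, a membrane protein gene of the pheromone response (0.13). The calls share the scale of each library. The S. pombe scaled fit found no gene-to-gene difference in spread beyond a common coefficient of variation of 0.423, against 0.235 with S. cerevisiae scaling, so calls in this comparison largely stand or fall together. Without DMSO replicate 3, 73 members were called, and a fit to all nascent libraries, with the 2 µM set at far higher S. cerevisiae to S. pombe ratios, called 0.

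Against 1-NAPP-1 at 5 µM, CMK gave a similar picture. Of the members, 194 of 200 were lower, as were 74.9% of all genes and 90.5% of genes past the floor. Of the comparison genes 178 of 200 were lower. The medians were -2.19 for members and -2.01 for comparison genes. KSP1 differed by -3.31, MGA2 by -3.68, GCD1, a subunit gene of the translation factor eIF2B, by -3.22 and BTN2 by -2.46. BTN2 stood at 1325, 1989 and 1693 reads per 1000000 S. pombe reads with CMK, against 12646 and 4914 with 1-NAPP-1. Both comparisons use the same CMK libraries.

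With 1-NAPP-1 at 5 µM the members' nascent RNA in kin28is cells lay close to that with DMSO. The members' median level was 9.22 and 8.52 with 1-NAPP-1 and 8.59 and 8.92 with DMSO on the log2 scale per 1000000 S. pombe reads, and these groups overlapped. The median log2 change was 0.17 for members and 0.15 for comparison genes. The 1 member called was HHT1 (0.134% of all genes higher). In WT cells, with 1 library per treatment at 5 µM, the median member stood at 10.34 with CMK, 9.99 with 1-NAPP-1 and 10.13 with DMSO. There the median changes were 0.16 with CMK and -0.08 with 1-NAPP-1, and the 1 member called lower for each was again HHT1 (0.0768% of all genes for each).

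The CMK response of kin28is cells minus that of WT cells had a median of -2.09 for members and -1.98 for comparison genes, with 199 of 200 members below 0. This difference was called for 0 members (0.269% of all genes lower, 14 genes, and 0.0768% higher). At an unadjusted p under 0.05 there were 121 members, and DESeq2 called 76 lower (19.8% of all genes, with 0.0384% higher). Comparison genes gave 87 of 200 under that p and 59 of 200 lower by DESeq2. Among genes past the floor 1540 of 3469 were under that p, and DESeq2 called 27.6% lower. Of all 5211 genes 1739 were under that p. The WT side rests on 1 library per treatment, assumed to vary like the other groups.

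At 2 µM, with 1 library per treatment and no test, the median member had less nascent RNA with inhibitor than with DMSO in each strain, in pairs from the same set and per S. pombe read. The median member of kin28is cells changed by -1.15 with CMK and by -2.51 with 1-NAPP-1, and comparison genes by -1.17 and -2.80. In kin28as cells the change with 1-NAPP-1 was -1.89 for members and -2.00 for comparison genes. WT cells gave a change of the same order with 1-NAPP-1, -2.12 for members and -1.84 for comparison genes, and -0.22 and 0.01 with CMK. Those WT values use the DMSO library that chose the members, which makes the members' own DMSO level high by choice. Doses and sets differ from the 5 µM results, so the order of the compounds is not compared across them.

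**Figure D5:**
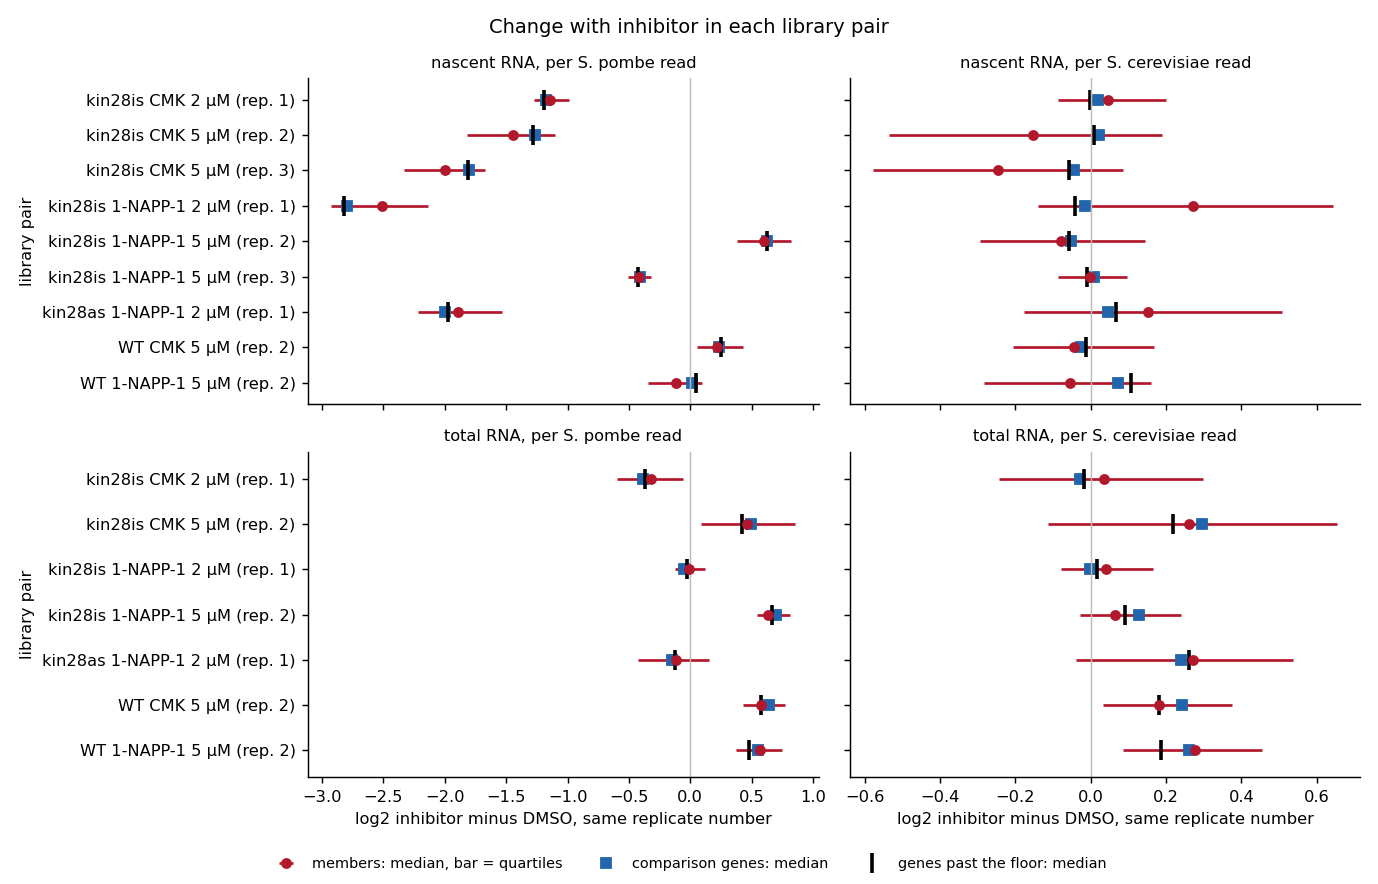
Median log2 change of members (bars span quartiles), comparison genes and all genes past the floor, for each inhibitor library against the DMSO library of the same strain and number, in nascent (top) and total RNA (bottom), per S. pombe read (left) and per S. cerevisiae read (right). Per S. pombe read, nascent kin28is CMK libraries lie at -1.15, -1.44 and -2.00 for members, and total RNA of the same cells at -0.32 and 0.46.

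Relative to other S. cerevisiae genes, the nascent change of most members was below 0. This comparison, scaled to S. cerevisiae genes, was added after the data were seen. Of the members, 13 were lower and 1 higher with CMK than with DMSO at 5 µM in kin28is cells, where 2.09% of all genes were lower and 2.42% higher. Genes of like level gave 8 lower and 1 higher. The medians were -0.29 for members, -0.11 for comparison genes and 0.01 for all genes, and 144 members against 121 comparison genes lay below 0. Genes past the floor had a median of -0.12, with 2110 of 3469 below 0, 3.06% called lower and 0.721% higher. These nascent libraries had 0.513, 0.509 and 0.277 S. cerevisiae reads per S. pombe read with CMK and 1.21 and 1.72 with DMSO. The pull-down without 4tU had 0.144, and the part of background in the relative changes was not tested. Between libraries of the same number the members' median was -0.15 and -0.24 at 5 µM, against 0.02 and -0.05 for comparison genes, and at 2 µM it was 0.05 against 0.02.

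YOR302W, the leader peptide of CPA1, had 282, 270 and 276 CPM with CMK and 578 and 662 CPM with DMSO in nascent RNA (-1.25 ± 0.23, adjusted p = 0.013). MGA2 had 139, 49.9 and 99.8 CPM with CMK, against 328 and 280 CPM with DMSO (-1.75 ± 0.32, adjusted p = 0.013). CLB2 stood at 86.6, 94.5 and 81.0 CPM with CMK and at 173 and 185 CPM with DMSO (-1.12 ± 0.23, adjusted p = 0.020). The CMK and DMSO values of these genes did not overlap, which was a condition of choosing them for this comparison.

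KSP1 (-1.27, adjusted p = 0.036), TYE7 (-1.30, adjusted p = 0.029), GCD1 (-1.37) and CMS1 (-1.19) were also lower. PRM7 was the 1 member higher, at 439, 179 and 265 CPM with CMK against 104 and 61.9 CPM with DMSO (1.70 ± 0.36, adjusted p = 0.025). By group 3 of 10 transcription factors (median -0.70) and 2 of 5 G2/M members (-0.75) were lower, 2 of 29 ribosome assembly members (-0.30), and 0 of 6 mRNA decay (-0.26) and 0 of 4 chaperone members (0.17).

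In total RNA no change of a member per S. pombe read passed the test. The S. pombe scaled fit had a common coefficient of variation of 0.626, against 0.242 with S. cerevisiae scaling. With so wide a spread, 0 calls do not show that total RNA was unchanged. With CMK against DMSO in kin28is cells (2 libraries each, at 2 and 5 µM), 0 of 200 members and 0% of all 5233 genes were called in either direction. At an unadjusted p under 0.05 there were 13 genes, of which 0 were members, and DESeq2 called 0. The median change was -0.11 for members, -0.18 for comparison genes and -0.01 for all genes. The pairs disagreed, with -0.32 at 2 µM and 0.46 at 5 µM, and leaving out 1 library moved the median between -0.78 and 1.14. With the replicate block 0 members were called, while 1.3% of all genes were lower and 0.0573% higher.

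The other total RNA comparisons, from the same fit and with the same limit, gave 0 called members too (0% of all genes in each). 1-NAPP-1 against DMSO in kin28is cells had a median of 0.16, with 0 genes at an unadjusted p under 0.05, and DESeq2 called 0. CMK against 1-NAPP-1 had a median of -0.28, with 3 genes at an unadjusted p under 0.05 and 0 by DESeq2. With the replicate block 4 members were lower there, where 2.62% of all genes were. In WT cells the median was 1.03 with CMK and 0.97 with 1-NAPP-1, 2 libraries each against DMSO replicate 2 alone, since DMSO replicate 1 chose the members. Comparison genes had 1.00 and 0.96. These medians set inhibitor libraries of both replicate sets against DMSO of the second set only, and with the replicate block they were 0.40 and 0.36 for members and 0.44 and 0.34 for comparison genes. With DMSO replicate 1 included they were 0.05 and 0.01 for members. At an unadjusted p under 0.05 there were 79 genes for CMK and 37 for 1-NAPP-1 in WT cells, 2 of them members in each, and DESeq2 called 0 in both. The CMK response of kin28is cells minus that of WT cells had a median of -1.11 for members and -1.19 for comparison genes, against the same unbalanced WT libraries. With the replicate block it was -0.42 for both, and with WT DMSO replicate 1 included -0.16 for members and -0.24 for comparison genes. There were 18 genes at an unadjusted p under 0.05 without the block, 1 of them a member, and 0 called by DESeq2. In kin28as cells the 1-NAPP-1 library differed from the DMSO library by -0.12.

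Scaled to S. cerevisiae genes, a comparison added after the data were seen, total RNA of 17 members was lower and of 3 higher with CMK than with DMSO in kin28is cells. This is close to the 9.76% of all genes that were lower and below the 5.45% that were higher. Among genes past the floor 13.2% were lower and 2.83% higher. Genes of like level gave 30 lower and 4 higher, and the medians were -0.16 and -0.12. With the replicate block 38 members were lower and 17 higher (21% and 19.4% of all genes). When 1 library was left out, 0 to 13 members were lower and 0 to 3 higher.

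RLP7, a large-subunit assembly factor, stood at 175 and 185 CPM with CMK, against 361 and 447 CPM with DMSO (-1.46 ± 0.30, adjusted p = 0.025). CMS1 had 45.8 and 60.4 CPM with CMK and 82.6 and 113 CPM with DMSO (-1.20 ± 0.25, adjusted p = 0.025). GCD1 had 176 and 181 CPM with CMK and 305 and 321 CPM with DMSO (-1.10 ± 0.26, adjusted p = 0.031). CMS1 and GCD1 were thus lower in nascent and in total RNA relative to other genes.

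ARP9, a subunit shared by the SWI/SNF and RSC remodellers, was lower too (-0.88 ± 0.20, adjusted p = 0.029), as were MUB1 (-0.71) and YKL068W-A (-0.80). SWI1 of the SWI/SNF remodeller rose to 177 and 249 CPM with CMK, against 92.5 and 87.5 CPM with DMSO (0.93 ± 0.21, adjusted p = 0.030). SCH9, a nutrient-signalling kinase gene, had 292 and 371 CPM with CMK and 174 and 159 CPM with DMSO (0.69 ± 0.17, adjusted p = 0.036), and PPM2 71.4 and 143 CPM against 42.2 and 44.4 CPM (0.96 ± 0.25, adjusted p = 0.040).

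By group, 3 of 29 ribosome assembly members were lower in relative total RNA (median -0.33), and 0 of 4 chaperone members were called although their median was -1.15. KSP1 (-0.39), TYE7 (-0.69), MGA2 (0.08) and CLB2 (0.29), lower in relative nascent RNA, were not called in relative total RNA. The difference between the 2 kinds of RNA was not tested.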

How the data were processed

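Read counts of the authors, whole numbers in 1 deposited table, cover genes of both yeasts in 34 libraries, and every column matched a labelled sample. CASAVA 1.8.2, STAR 2.3.0, HTSeq 0.6.0 and sacCer3 are named per the submitters' processing notes, without roles; these sources do not say if counting used strand. Of 5390 S. cerevisiae rows, 5241 matched RefSeq R64 by systematic name, and 199 of 200 members did.

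Members, function lists and tests were chosen with earlier results of these data known. CPM are counts per 1000000 S. cerevisiae reads, with 0.5 reads added before logarithms. Tests used edgeR 4.0.16 (R 4.3.3, glmQLFit and glmQLFTest) on genes kept by filterByExpr (min.count = 10), with p adjusted by Benjamini-Hochberg over all genes tested and a threshold of 0.05. Inhibitor comparisons were scaled to S. pombe genes (library total and TMM factor). The ratio test and the relative comparisons were scaled by TMM to S. cerevisiae genes, and the relative comparisons were chosen after seeing the data. The ratio fit held 26 libraries with 14 residual degrees of freedom, the nascent fit the 10 libraries at 5 µM (4) and the total RNA fit 11 libraries (5), all without the choosing libraries. Scripts were tested on simulated data. Depth per library is given with the results.

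Replicate numbers mark the labelled dose set, 1 for 2 µM and later ones for 5 µM. Deviations of same-number libraries from their group means correlated over 0.1 in 80 of 93 pairs of the ratio fit and in 14 of 20 pairs of the total RNA fit. The numbers were taken as a pairing there from the labels. In the nascent fit at 5 µM, where no label ties the numbers, this held for 4 of 6 pairs.

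Named genes were the 15 members with the highest ratio, the genes at its border, the 3 highest members of each list with at least 4, KIN28, and in each comparison up to 4 called members per direction with the smallest adjusted p and no overlap between groups. Alternatives were the replicate block, median-of-ratios scaling, no filter on low counts, DESeq2 1.42.0, the other species' scaling, other sets of libraries, other floors, and leaving out each library. The length ranges and per-library medians were added after seeing the data.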

Additional observations from a re-analysis of the deposited data

Results flagged for a closer look

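Among the 4 nascent kin28is CMK libraries, 50 groups of values were tested, from named genes and the members' median nascent to total ratio. In 4 of them, all named genes, 1 library lay far from the other 3. The measure was the gap to the nearest library over the whole range (above 0.829). Chance marks about 1 in 20 groups. YDR183C-A stood at 8.73 log2 CPM in replicate 2, against 7.49 to 7.68 in the others. TAF12 stood at 8.59 in replicate 1, the library at 2 µM, against 7.68 to 7.81 at 5 µM. CMS1 stood at 6.72 in replicate 1, against 5.75 to 5.91. YOR302W stood at 7.64 in replicate 1, against 8.09 to 8.14. The last 3 set the 2 µM library apart from the 5 µM libraries, and dose and replicate set cannot be told apart.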

How the results depend on the processing

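The count of members with a higher ratio in kin28is DMSO cells was 47 as reported. It was 122 with the replicate block, 79 with DESeq2, 24 with the 5 µM libraries only, 17 with the kin28is DMSO libraries only and 0 with S. pombe scaling, and 0 to 84 without 1 library. The median ratio there was 0.91 for members chosen from WT DMSO replicate 2, and -0.015 for comparison genes drawn from all non-members.

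Scaling to S. cerevisiae genes left 13 members lower and 1 higher in nascent CMK against DMSO, 7 lower and 1 higher against 1-NAPP-1, 0 called for 1-NAPP-1 against DMSO and 0 for either inhibitor in WT cells, and gave 3 higher and 17 lower in total CMK against DMSO. A fit to all nascent libraries called 0 in each nascent comparison; there KSP1 (0.034), MGA2 (0.59) and GCD1 (0.97) changed sign for CMK against 1-NAPP-1. DESeq2 called 76 members for the nascent difference between strains and 0 for 1-NAPP-1 in kin28is and for both inhibitors in WT nascent RNA. The relative comparison by DESeq2 gave 2 members higher and 21 lower in nascent RNA, where 4.62% of all genes were higher and 3.15% lower. In total RNA it gave 7 higher and 29 lower, where 14.7% of all genes were higher and 15.5% lower. Genes of like level gave 2 higher and 11 lower in nascent, and 8 higher and 40 lower in total RNA. The causes were not tested.

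With the replicate block, the pairing taken by number, 0 members were called for nascent 1-NAPP-1 against DMSO. For total CMK against 1-NAPP-1, 4 were lower (2.62% of all genes). In relative nascent CMK against DMSO 2 were higher and 23 lower (4.11% and 3.26% of all genes). Comparison genes gave 5 higher and 12 lower there. In relative total CMK against DMSO 17 members were higher and 38 lower (19.4% and 21% of all genes). Nascent CMK against DMSO kept 154 members called lower, where 47.9% of all genes and 126 of 200 comparison genes were lower. Same-number libraries of that fit need not be paired. The block moved no other count of calls by more than 1.5 times.

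Leaving out 1 library gave 73 to 194 members lower in nascent CMK against DMSO, 118 to 196 against 1-NAPP-1, 0 to 1 higher for 1-NAPP-1, and 0 to 22 lower with 0 to 1 higher for the nascent strain difference. In total RNA it gave 0 to 2 higher for CMK, 0 to 1 higher for 1-NAPP-1 and 0 to 1 lower for the strain difference. The relative comparisons gave 0 to 1 higher and 0 to 19 lower in nascent, and 0 to 3 higher and 0 to 13 lower in total RNA. A lone library left in a group is assumed to vary like the others. Of the main counts and medians 231 values under alternatives stayed within 1.5 times or their spread and 62 moved. The CMK libraries at 5 µM had a median of 92 to 180 reads per member, which limits single genes there.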
